A study of Mus musculus with 13 samples.

Results

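CD103 is the αE integrin subunit, encoded by Itgae. The account covers 8 of the 22180 genes with a probe set of their own on the array: Itgae, its partner subunit Itgb7, its ligand Cdh1, the transcription factor Runx3, the TGF-β receptors Tgfbr1 and Tgfbr2, and the signalling proteins Smad3 and Smad7. They were taken by gene symbol, and a gene with several probe sets was represented by the one with the highest mean. All 8 genes were found.

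RNA came from CD205+CD8+ dendritic cells, the cross-presenting type 1 conventional dendritic cells (cDC1) of the spleen, on 13 Mouse Gene 2.0 ST arrays. Every mouse was C57Bl/6, labelled male, 6 weeks old, and carried a subcutaneous B16 melanoma secreting Flt3L, which drives dendritic cells to multiply, so cells of tumour-free mice were not measured. On day 5 the mice were given 100 ul of PBS intraperitoneally, either alone or with 50 ug of muramyl dipeptide (MDP), the peptidoglycan fragment sensed by NOD2, and spleens were collected 24 h later. Sorting by surface CD103 gave 4 arrays of PBS CD103 low cells and 3 arrays each of PBS CD103 high, MDP CD103 low and MDP CD103 high cells. Nothing states that each array was its own mouse, so p-values measure the spread between these arrays, which may in part be technical.

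The αE subunit reaches the cell surface only as a dimer with β7, and the αEβ7 dimer binds E-cadherin on epithelial cells. In T cells, TGF-β is a known inducer of CD103: the ligand brings together its type II and type I receptors, the type I receptor phosphorylates Smad2 and Smad3, and Smad complexes enter the nucleus, where Runx3 is a known partner at Itgae. Smad7 is induced by the pathway and blocks the type I receptor. In dendritic cells CD103 marks part of the cDC1 lineage and is also known to be raised by GM-CSF.

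Values are log2 RMA units, in which a difference of 1 is a doubling of signal. As a mark of background, the 95th percentile of 1105 olfactory receptor genes was 5.12. The cells carried the markers of their label: 0 of 11 cDC1 markers lay at or below background, and Batf3 ranged from 10.996 to 11.34 over the arrays. Among markers of other cells, 7 of 11 T cell genes, Cd3e included, 10 of 12 mast cell and basophil genes, Cpa3 included, 8 of 11 melanoma genes and 8 of 12 epithelial genes, Epcam included, were at or below background. So were 10 of 12 neutrophil genes. Most markers of plasmacytoid dendritic cells, of cDC2 and of monocytes and macrophages lay above background. At or below it were 2 of 12 plasmacytoid dendritic cell genes, 3 of 12 cDC2 genes and 5 of 14 monocyte and macrophage genes. Xist was high in 7 of the 13 arrays and low in 6 although every label says male; both states occurred in every group. The array of MDP CD103 low replicate 1 stood apart in its mature dendritic cell markers, with a mean over 20 genes of 8.72 against 7.61 and 7.62 in replicates 2 and 3.

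Itgae itself differed most among the 8 genes. Because the cells were sorted on the protein that it encodes, its difference between the gates checks the sort and is not a finding. The same gate was compared between PBS and MDP mice. That comparison also rests on where each gate was drawn, and whether the gates were set alike was not tested. In PBS CD103 low cells, Itgae measured 8.35, 8.17, 7.73 and 7.46 in replicates 1, 3, 4 and 6. In PBS CD103 high cells it measured 10.16, 10.22 and 10.07 in replicates 4, 5 and 6. The PBS gates did not overlap, and the high gate was the tightest of the 4 groups. In MDP CD103 low cells, Itgae measured 10.68, 10.07 and 9.64 in replicates 1, 2 and 3, and in MDP CD103 high cells 11.44, 11.10 and 11.51 in replicates 2, 3 and 4. Every MDP array thus lay above every PBS array of the same gate. The mean of MDP CD103 low cells came near that of PBS CD103 high cells, but through replicate 1. That array lay above every PBS CD103 high array, while replicates 2 (10.0699) and 3 lay below every one (lowest 10.0723).

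**Figure D1:**
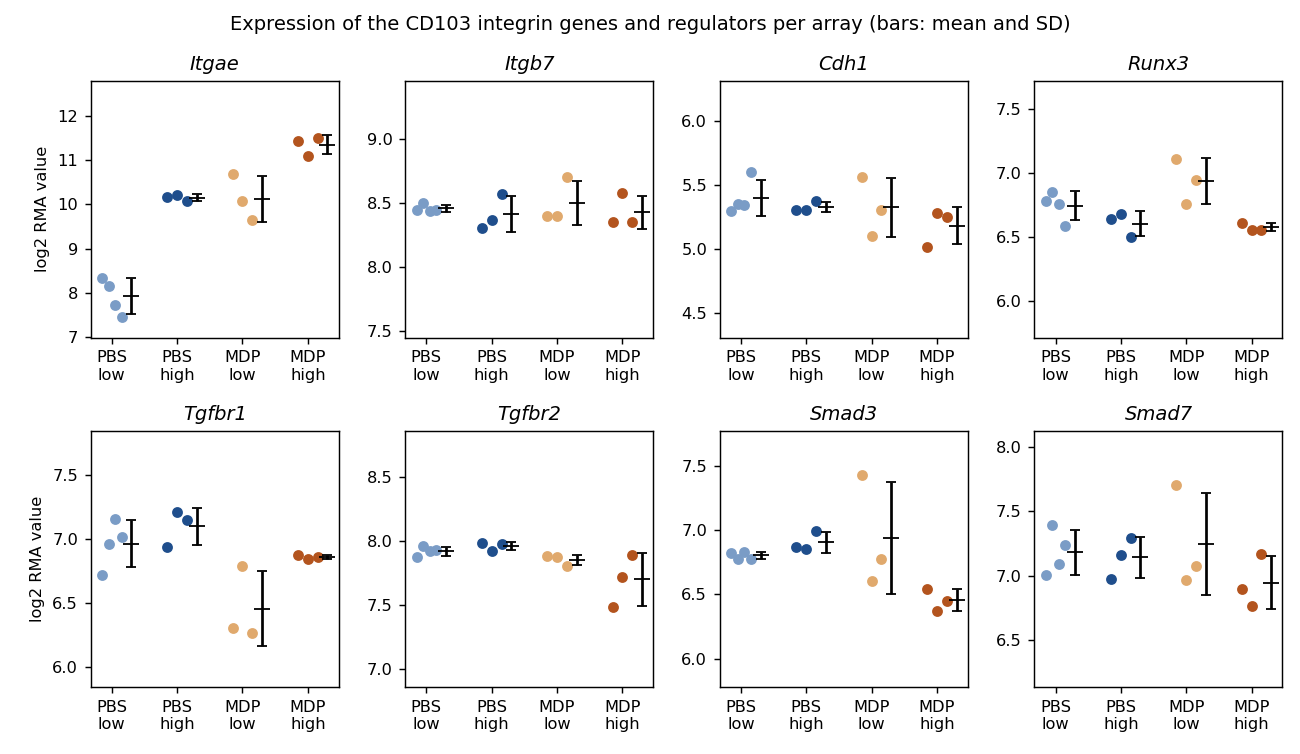
Log2 RMA value (vertical axis) of the 8 genes on each of the 13 arrays, by group, with points for arrays and bars for the group mean and SD. The axis of the Itgae panel spans a wider range than the others: its PBS CD103 low arrays lie between 7.46 and 8.35 and its MDP CD103 high arrays between 11.10 and 11.51, while Itgb7 stays between 8.30 and 8.70 on all 13 arrays.

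The order of the Itgae group means was PBS CD103 low at 7.92 ± 0.41 (SD, n = 4), MDP CD103 low at 10.13 ± 0.52 (SD, n = 3), PBS CD103 high at 10.15 ± 0.08 (SD, n = 3) and MDP CD103 high at 11.35 ± 0.21 (SD, n = 3). The middle pair overlapped only through MDP CD103 low replicate 1 and did not differ beyond its spread. MDP low minus PBS high was -0.02, with a 95% interval of -0.56 to 0.52, which leaves room for ratios from 0.678 to 1.43. Without that replicate the difference was -0.30.

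Between the gates, Itgae was 4.69-fold higher in PBS CD103 high than low cells, a log2 difference of 2.23 ± 0.23 (SE; limma adjusted p = 0.00376). This was the only one of the 8 genes past the threshold, an adjusted p of 0.05, where 0.0766% of all genes passed. In MDP mice the ratio was 2.33-fold, 1.22 ± 0.25 (SE), with a limma adjusted p of 0.0529, so that 0 of the 8 genes passed where 0.523% of all genes did. It passed without MDP CD103 low replicate 1 (adjusted p = 0.0406) or without PBS CD103 low replicate 6 (0.0378), and with same-numbered arrays of a treatment as a block (1.24, adjusted p = 0.0242). The difference between the gates was smaller in MDP than in PBS mice by 1.01 ± 0.34 (SE), a limma interaction with an unadjusted p of 0.0114 and an adjusted p of 0.332. It missed the threshold, was -0.49 ± 0.35 (SE) over the arrays with high Xist alone, and 0 of the 8 genes passed where 0.0721% of all genes did.

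Between treatments, Itgae rose 4.62-fold in CD103 low cells after MDP, by 2.21 ± 0.23 on the log2 scale (SE; 95% interval 1.70 to 2.71; limma adjusted p = 0.00838). It was the 1 gene of all those tested that passed there, 0.00451% (2 genes with same-numbered arrays of a treatment as a block). The call was lost without MDP CD103 low replicate 2 (adjusted p = 0.0787) or PBS CD103 low replicate 4 (0.0566), and with only the arrays compared in the fit (0.331), while the difference stayed between 1.93 and 2.45 over the arrays left out. In CD103 high cells Itgae rose 2.29-fold, by 1.20 ± 0.25 (SE; 95% interval 0.66 to 1.74; limma adjusted p = 0.029), and was the only one of the 8 genes to pass, where 1.82% of all genes did. That call was lost when any 1 of the 6 arrays of PBS or MDP CD103 high cells was left out (adjusted p from 0.061 to 0.124, differences from 1.12 to 1.32). In these sorted populations, a change in the share of cells of a type and a change in RNA per cell cannot be told apart.

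Both steps together gave the widest contrast, MDP CD103 high minus PBS CD103 low, at 3.43 ± 0.23 (SE) or 10.8-fold (limma adjusted p = 4.63e-05). Of all genes, 0.406% passed in that contrast, and no other of the 8 did. Averaged over treatments the gates differed by 1.72 ± 0.17 (SE; limma adjusted p = 0.00399; 0.126% of all genes passed). Averaged over gates the treatments differed by 1.70 ± 0.17 (SE; adjusted p = 0.00153; 0.185% of all genes passed). The contrasts share arrays and are not independent of each other. As the cells were sorted on CD103, the gate average checks the sort, and the widest contrast includes the sort.

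**Figure D2:**
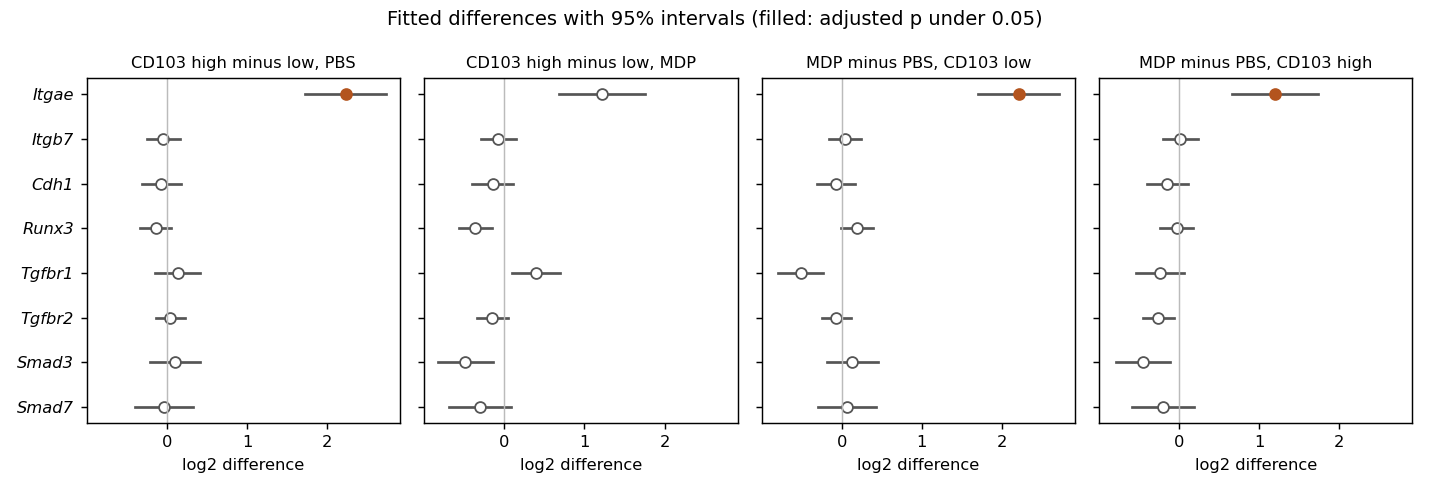
Log2 difference with its 95% interval (horizontal axis) for each of the 8 genes in the comparisons of gate and treatment, from the limma fit over 13 arrays; filled points passed an adjusted p of 0.05. Itgae lies at 2.23, 1.22, 2.21 and 1.20, whereas the other genes lie between -0.51 and 0.40.

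The β7 subunit gene, Itgb7, without which αE is not displayed, was well above background on every array. Its values were 8.45, 8.50, 8.44 and 8.45 in PBS CD103 low replicates 1, 3, 4 and 6, and 8.30, 8.37 and 8.57 in PBS CD103 high replicates 4, 5 and 6. After MDP they were 8.40, 8.40 and 8.70 in CD103 low replicates 1, 2 and 3, and 8.35, 8.58 and 8.35 in CD103 high replicates 2, 3 and 4. All groups overlapped. High minus low was -0.04 ± 0.09 (SE) in PBS mice, with a 95% interval of -0.25 to 0.16, and -0.07 ± 0.10 (SE) in MDP mice, with an interval of -0.29 to 0.15. MDP minus PBS was 0.04 (interval -0.16 to 0.25) in low cells and 0.01 (interval -0.20 to 0.23) in high cells. These intervals exclude changes of the size seen for Itgae in the same arrays.

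The start window of Itgb7 is shown with the windows of Runx3 because these genes encode the partner of αE and the factor that acts at its gene. A window of 300 bases, from 250 before to 50 after a start, was matched in the RefSeq promoter table (GRCm38.p6) for 5 of the 8 genes, Itgb7, Runx3, Tgfbr1, Tgfbr2 and Smad3, as 7 windows. Capitals mark matches on either strand to TGTGGT, the core letters bound by Runx factors (ACCACA on the other strand), or to CAGAC, letters bound by Smad complexes (GTCTG on the other strand). The first is held by 16.76% of the 32851 windows in the table and the second by 49.59%. The Itgb7 window is at chr15:102231886-102232185 on the minus strand, and the Runx3 windows are at chr4:135120395-135120694 and chr4:135152295-135152594 on the plus strand.
Itgb7: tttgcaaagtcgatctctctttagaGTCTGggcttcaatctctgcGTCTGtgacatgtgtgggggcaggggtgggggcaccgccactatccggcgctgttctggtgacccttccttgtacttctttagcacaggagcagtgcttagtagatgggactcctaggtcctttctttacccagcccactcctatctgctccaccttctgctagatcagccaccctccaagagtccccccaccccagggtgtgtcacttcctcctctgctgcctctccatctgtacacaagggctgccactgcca
Runx3, first start: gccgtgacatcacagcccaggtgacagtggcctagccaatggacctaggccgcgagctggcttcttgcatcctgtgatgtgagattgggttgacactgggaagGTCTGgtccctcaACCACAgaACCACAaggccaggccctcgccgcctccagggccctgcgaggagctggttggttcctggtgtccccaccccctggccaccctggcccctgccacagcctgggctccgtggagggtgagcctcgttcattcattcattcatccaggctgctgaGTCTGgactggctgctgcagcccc
Runx3, second start: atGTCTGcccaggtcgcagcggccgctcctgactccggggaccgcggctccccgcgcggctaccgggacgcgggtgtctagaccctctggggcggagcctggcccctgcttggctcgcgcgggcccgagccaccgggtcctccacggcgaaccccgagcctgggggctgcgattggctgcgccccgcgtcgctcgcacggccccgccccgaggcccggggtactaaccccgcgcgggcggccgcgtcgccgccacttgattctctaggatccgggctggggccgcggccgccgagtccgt
The Itgb7 window holds 2 Smad matches, at positions 26 to 30 and 46 to 50 counted from its 5′ end. Of all windows, 16.24% hold 2 or more Smad matches. The window of the first Runx3 start holds 2 Runx matches, at positions 117 to 122 and 125 to 130, which 1.81% of all windows equal or exceed, and 2 Smad matches, at 104 to 108 and 277 to 281. The second holds 1 Smad match, at 3 to 7. Of the windows not printed, those of Tgfbr2 and the second Tgfbr1 start hold 1 Smad match each, and those of Smad3 and the first Tgfbr1 start hold neither motif. A match describes letters only, and binding was not measured.

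Cdh1 encodes E-cadherin, the ligand of αEβ7, which some dendritic cells also express. It stayed near background: 11 of 13 arrays lay above it, with values of 5.29 to 5.60 in PBS CD103 low cells, 5.31 to 5.38 in PBS CD103 high cells, 5.11 to 5.57 in MDP CD103 low cells and 5.02 to 5.28 in MDP CD103 high cells. The MDP CD103 high arrays lay below the PBS CD103 high arrays without overlap, but the difference of -0.15 ± 0.12 (SE) missed the threshold (limma adjusted p = 0.662), and a level this close to background limits what can be read from it. A second Cdh1 probe set, with a mean of 3.42, lay below background on every array.

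Runx3, a Runt-domain factor that shapes CD8 T cell and dendritic cell fates, showed the opposite gate direction to Itgae without passing the test. It measured 6.78, 6.85, 6.76 and 6.59 in PBS CD103 low replicates 1, 3, 4 and 6 and 6.64, 6.68 and 6.50 in PBS CD103 high replicates 4, 5 and 6. After MDP it measured 7.11, 6.76 and 6.94 in CD103 low replicates 1, 2 and 3 and 6.61, 6.56 and 6.56 in CD103 high replicates 2, 3 and 4. The PBS gates overlapped, and after MDP all high arrays lay below all low arrays. High minus low was -0.14 ± 0.09 (SE; limma adjusted p = 0.74) in PBS mice and -0.36 ± 0.10 (SE; 95% interval -0.57 to -0.15; limma adjusted p = 0.149) in MDP mice, and averaged -0.25 ± 0.07 (SE; adjusted p = 0.242). Within all 4 pairs of same-numbered arrays the high array was the lower, with differences of -0.12 and -0.09 in PBS replicates 4 and 6 and of -0.14 and -0.39 in MDP replicates 2 and 3.

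Tgfbr1, the type I receptor kinase that phosphorylates Smad3, was lowest in MDP CD103 low cells. It measured 6.72, 6.96, 7.16 and 7.02 in PBS CD103 low replicates 1, 3, 4 and 6 and 6.94, 7.21 and 7.15 in PBS CD103 high replicates 4, 5 and 6. After MDP it measured 6.31, 6.79 and 6.27 in CD103 low replicates 1, 2 and 3 and 6.87, 6.84 and 6.86 in CD103 high replicates 2, 3 and 4. MDP CD103 low replicate 2 overlapped the PBS CD103 low range, and the other 2 arrays lay below it. MDP minus PBS in low cells was -0.51 ± 0.13 (SE; 95% interval -0.79 to -0.23; limma adjusted p = 0.706), and in high cells -0.24 ± 0.14 (SE; adjusted p = 0.506), where the groups did not overlap. Averaged over gates it was -0.37 ± 0.10 (SE; adjusted p = 0.131). In the comparison of the groups with like Itgae means, MDP low minus PBS high, Tgfbr1 differed by -0.64 ± 0.14 (SE). It missed the threshold with a limma adjusted p of 0.083, where 0.289% of all genes passed. It passed without MDP CD103 low replicate 2 (adjusted p = 0.0305) or with genes above background alone (0.0397).

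Tgfbr2, the type II receptor that binds the ligand, had a narrow range in 3 of the groups. It measured 7.87 to 7.96 in PBS CD103 low cells, 7.92 to 7.98 in PBS CD103 high cells and 7.81 to 7.88 in MDP CD103 low cells, and 7.49, 7.72 and 7.89 in MDP CD103 high replicates 2, 3 and 4. The last group had the widest spread and lay below PBS CD103 high cells without overlap. MDP minus PBS was -0.26 ± 0.09 in high cells (SE; 95% interval -0.45 to -0.07; limma adjusted p = 0.204) and -0.07 ± 0.08 in low cells (SE; adjusted p = 0.919).

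Smad3, the receptor-activated Smad with a known role at Itgae, was lowest in MDP CD103 high cells. It measured 6.82, 6.78, 6.83 and 6.78 in PBS CD103 low replicates 1, 3, 4 and 6 and 6.87, 6.85 and 6.997 in PBS CD103 high replicates 4, 5 and 6. After MDP it measured 7.43, 6.60 and 6.78 in CD103 low replicates 1, 2 and 3 and 6.55, 6.37 and 6.45 in CD103 high replicates 2, 3 and 4. All 3 MDP CD103 high arrays lay below every other array, and MDP CD103 low replicate 1 lay above every other. In high cells MDP minus PBS was -0.45 ± 0.16 (SE; limma adjusted p = 0.21), and without MDP CD103 low replicate 1, which widens the shared estimate of the spread, the same difference had an adjusted p of 0.00848. High minus low in MDP mice was -0.48 ± 0.16 (SE; limma adjusted p = 0.276), and -0.24 without that array. In the contrast of MDP CD103 high with PBS CD103 low, Smad3 differed by -0.35 (adjusted p = 0.522), and without that array the adjusted p was 0.0473.

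Smad7, the inhibitory Smad, overlapped between the groups in each of these comparisons. Its values ran from 7.002 to 7.40 in PBS CD103 low cells, from 6.97 to 7.29 in PBS CD103 high cells, from 6.96 to 7.70 in MDP CD103 low cells and from 6.77 to 7.17 in MDP CD103 high cells. High minus low in MDP mice was -0.30 ± 0.18 (SE; 95% interval -0.69 to 0.08; limma adjusted p = 0.614) and -0.07 without MDP CD103 low replicate 1, which held its highest value.

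Markers of mature dendritic cells moved beside these values. The mean over the 20 genes was 6.95 to 7.22 in MDP CD103 high cells, 7.71 to 8.08 in PBS CD103 high cells, 7.50 to 7.77 in PBS CD103 low cells and 7.61 to 8.72 in MDP CD103 low cells. In MDP high minus low, 3 of the 20 were called lower and 0 higher, with 20 of 20 below 0 and a median difference of -0.60. Of all 22180 genes, 11 were called lower and 105 higher there, with 12045 below 0. In high MDP minus PBS 5 of the 20 were called lower with a median of -0.67. Of all genes, 88 were called lower and 315 higher there. In PBS high minus low 0 of the 20 were called, with 19 of 20 above 0 and a median of 0.22. Of all genes, 10 were called higher and 7 lower there, with 10852 above 0. In low MDP minus PBS 0 of the 20 were called, with 15 of 20 above 0 and a median of 0.28. Of all genes, 1 was called higher and 0 lower there, with 11423 above 0. MDP CD103 low replicate 1, the highest for these markers, was also the highest of its group for Itgae, Cdh1, Runx3, Tgfbr2, Smad3 and Smad7, though for Tgfbr2 by less than 0.01, while it was the middle value for Tgfbr1 and the lowest for Itgb7. Among markers of other cells, the plasmacytoid dendritic cell genes Pacsin1 and Cd300c and the B cell gene Fcrla were called higher in PBS high minus low, by 0.90, 0.90 and 0.75 (limma adjusted p = 0.0294, 0.0328 and 0.0121). The same 3 genes were called lower in high MDP minus PBS, at -0.77, -0.96 and -0.72 (limma adjusted p = 0.013, 0.0052 and 0.00491), and both contrasts share the PBS CD103 high arrays. The mean over the 12 plasmacytoid genes was 6.79 to 6.94 in PBS CD103 high cells, 6.68 to 6.72 in PBS CD103 low cells, 6.72 to 6.87 in MDP CD103 low cells and 6.69 to 6.72 in MDP CD103 high cells. Pacsin1 and Cd300c are part of that mean. In PBS high minus low, 6 plasmacytoid genes lay above 0 and 6 below, with a median of -0.01. For the B cell genes it was 4 above and 6 below, with a median of -0.01. In high MDP minus PBS, 8 plasmacytoid and 7 B cell genes lay below 0, with medians of -0.06 and -0.08. Of the B cell genes, 7 of 10, Cd79a and Pax5 included, were at or below background. Sirpa, a cDC2 marker, was called lower in MDP high minus low, at -0.50 (limma adjusted p = 0.0308). The part of these markers in the values of the 8 genes was not tested.

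Counted by arrays alone, the groups did not overlap for 2 of the 8 genes between the PBS gates, Itgae and Smad3, where 8.53% of all genes did not overlap. Between the MDP gates it was 4 of the 8, Itgae and Tgfbr1 higher and Runx3 and Smad3 lower in the high gate, against 14.4% of all genes. Between treatments it was 1 of the 8 in low cells, Itgae, against 5.5%, and 5 of the 8 in high cells, Itgae higher and Cdh1, Tgfbr1, Tgfbr2 and Smad3 lower after MDP, against 19% of all genes. Across both gate and treatment, 3 of the 8 did not overlap in MDP low minus PBS high, Runx3 higher and Tgfbr1 and Tgfbr2 lower (16.4% of all genes), and 3 in MDP high minus PBS low, Itgae higher and Cdh1 and Smad3 lower (8.97% of all genes). Only Itgae passed limma's test in any of these comparisons, so the other counts describe arrays. Across the 13 arrays the Pearson correlation with Itgae ran from -0.479 for Tgfbr2 to -0.181 for Smad7 over the other 7 genes, a description over points that share group and array.

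**Figure D3:**
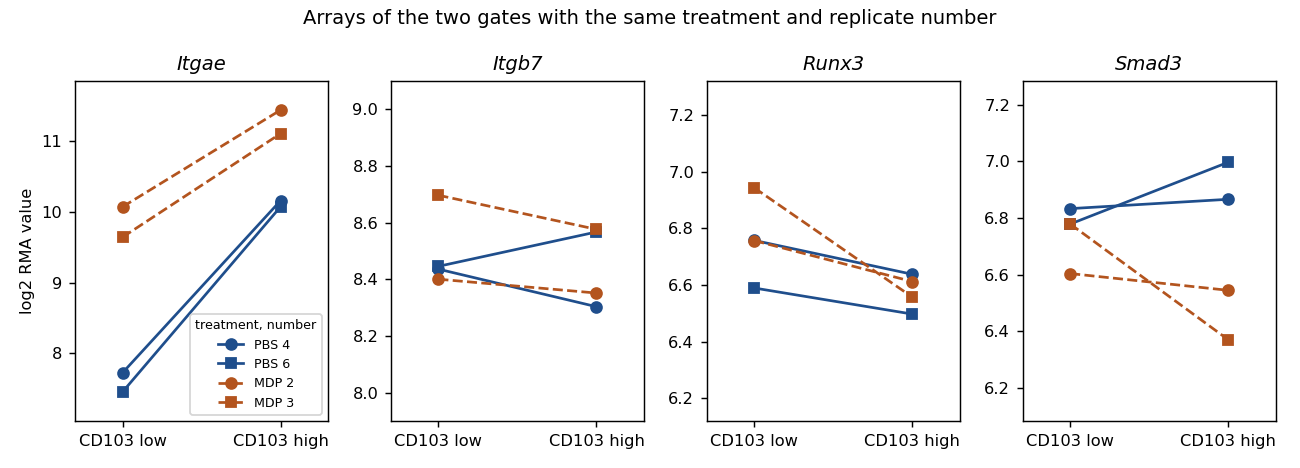
Log2 RMA value (vertical axis) of Itgae, Itgb7, Runx3 and Smad3 in the 4 pairs of CD103 low and high arrays that share a treatment and a replicate number, joined by lines. Itgae is higher in the high array of every pair, by 2.43, 2.62, 1.37 and 1.46, and Runx3 is lower in every pair.

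The wider pathway was described, and not tested for enrichment, with 9 lists chosen with earlier results of these data known. The lists held 138 measured genes. Of these, 0 rose and 1 fell in PBS high minus low, 0 passed in MDP high minus low and in low MDP minus PBS, and 1 rose and 3 fell in high MDP minus PBS. Over all genes tested, 0.0766%, 0.523%, 0.00451% and 1.82% passed in these comparisons, in the order PBS high minus low, MDP high minus low, low MDP minus PBS and high MDP minus PBS. The median difference over the 138 was 0.02, -0.04, 0.00 and -0.04 in the same order, beside -0.003, -0.01, 0.004 and -0.01 over all genes.

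The genes that fell in CD103 high cells after MDP were 2 of the 14 for TGF-β ligands and latency and 1 of the 17 for pathway inhibitors. Lrrc32, encoding GARP, which holds latent TGF-β at the cell surface, measured 6.47, 6.99 and 6.49 in PBS CD103 high replicates 4, 5 and 6 and 5.60, 5.42 and 5.54 in MDP CD103 high replicates 2, 3 and 4. It fell by 1.13 ± 0.15 on the log2 scale (SE; limma adjusted p = 0.00495), to the lowest group mean of the 4. Skil, encoding SnoN, a repressor that binds Smads, measured 9.02, 8.92 and 9.03 in PBS CD103 high cells and 8.55, 8.50 and 8.53 in MDP CD103 high cells. Skil fell by 0.46 ± 0.08 (SE; limma adjusted p = 0.01), a call lost without PBS CD103 high replicate 6 (adjusted p = 0.0602) and at the threshold without MDP CD103 high replicate 3 (0.05). Ltbp2, encoding a latent TGF-β binding protein family member, fell by 0.98 ± 0.23 (SE; limma adjusted p = 0.0459), from 8.005, 8.68 and 8.88 to 7.52, 7.49 and 7.60. The Ltbp2 call was lost in 9 of the 13 fits that left out 1 array, with adjusted p up to 0.199, and was kept only without PBS CD103 low replicate 6, PBS CD103 high replicate 4 or MDP CD103 low replicates 1 or 2.

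Vcl, encoding vinculin, a linker at cadherin and integrin contacts, was the 1 gene of the 17 for the E-cadherin and catenin complex that passed, and moved in both directions. It measured 8.66, 8.62, 8.57 and 8.58 in PBS CD103 low cells and 8.25, 8.06 and 8.25 in PBS CD103 high cells, a difference of -0.42 ± 0.07 (SE; limma adjusted p = 0.0413). In MDP CD103 high cells it measured 8.57, 8.57 and 8.54, higher than PBS by 0.37 ± 0.07 (SE; limma adjusted p = 0.0193). The call between the PBS gates was lost on leaving out any array but MDP CD103 low replicate 1 (12 of 13 fits, adjusted p up to 0.275). The call between treatments was lost without MDP CD103 high replicate 2 or 3 or PBS CD103 high replicate 5 or 6 (adjusted p up to 0.0948).

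No gene passed in the lists for receptors and co-receptors (13 genes), Smads and their partners (14), genes induced by TGF-β (17), Runx factors and partners (8), other known regulators of Itgae (19) or other integrins (19). By smallest p within its list, the genes named from them included Acvr2b, an activin receptor, with a high MDP minus PBS difference of -0.40 (limma adjusted p = 0.0636), and Nfil3, a factor needed in the cDC1 lineage, at -0.50 (adjusted p = 0.0507). Those of smallest p in their own lists in MDP high minus low were Tle3, a corepressor that binds Runx factors, at -0.38 (limma adjusted p = 0.149), and Cd207, encoding langerin, at 0.85 (adjusted p = 0.29). Smad1, a Smad of the BMP branch, had a high MDP minus PBS difference of -0.27 (limma adjusted p = 0.276), and Itgb5, below background at a mean of 4.51, a MDP high minus low difference of -0.28 (adjusted p = 0.335).

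**Figure D4:**
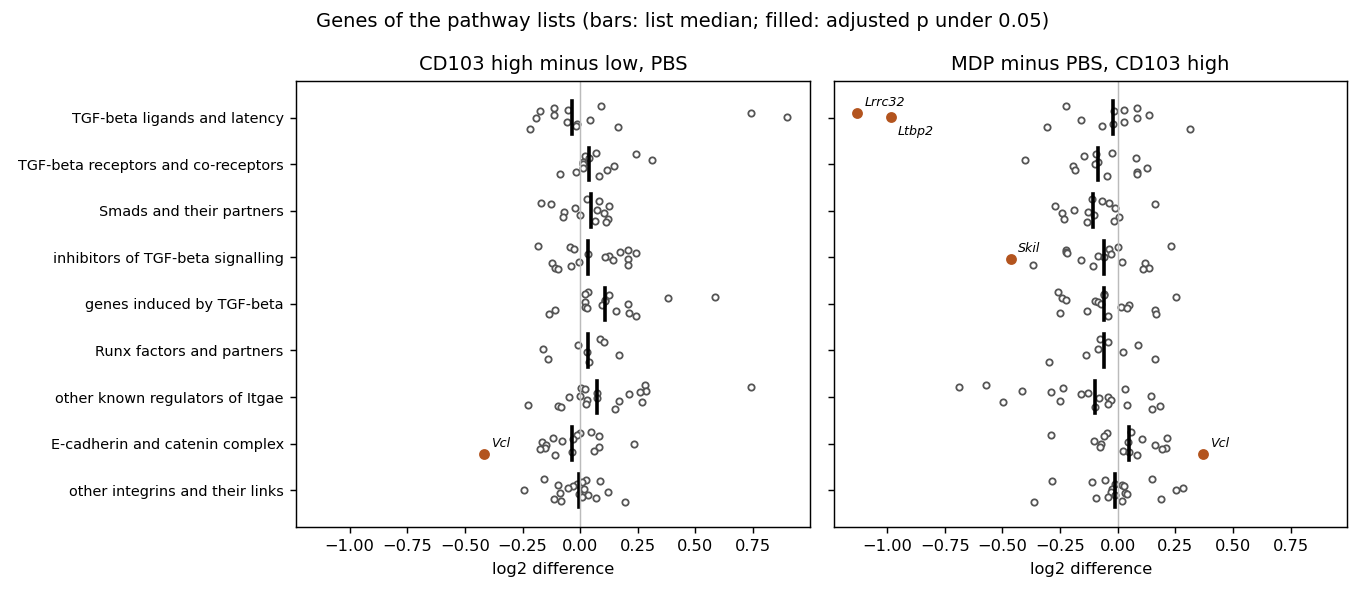
Log2 differences (horizontal axis) of the genes of the 9 pathway lists in CD103 high minus low cells of PBS mice and in MDP minus PBS CD103 high cells; points are genes, bars list medians, and genes past the threshold are filled and named. Lrrc32 at -1.13, Ltbp2 at -0.98 and Skil at -0.46 lie lower in MDP than PBS CD103 high cells, and Vcl lies lower in PBS CD103 high than low cells.

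Likeness to Itgae over the 13 arrays was ranked among 10737 of the 11716 genes above background. Predicted genes, microRNAs, small nucleolar RNAs and antigen receptor segments were left out. Most like Itgae were Dapk1, a death-associated kinase (Pearson r = 0.894), Ttll4 (0.881), Dhrs3, a retinaldehyde reductase (0.871), Cklf (0.841) and Mapk13, a p38 kinase (0.83). Dapk1 was picked by this likeness, and its group means followed the order of Itgae. They were 9.35 in PBS CD103 low, 9.59 in MDP CD103 low, 9.78 in PBS CD103 high and 9.89 in MDP CD103 high cells. Those most opposite were Wnt11 (-0.852), Dnajc27 (-0.839), Hs3st3b1 (-0.834), Btbd7 (-0.809) and Ctnnb1 (-0.797), the last encoding β-catenin, which binds the tail of E-cadherin. Ctnnb1 had group means of 8.95 in PBS CD103 low, 8.87 in both PBS CD103 high and MDP CD103 low, and 8.76 in MDP CD103 high cells. Its gate and treatment differences were small, from -0.11 to -0.08, and none passed limma's test (adjusted p from 0.598 to 0.866). None of the other 7 genes was among these 10, and arrays of a group share a treatment and a gate.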

How the data were processed

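The authors deposited log2 probe set values made with RMA in Affymetrix Expression Console, per the submitters' processing notes, from 400 ng of pre-amplified RNA, per the labels' protocols. RMA equalises array distributions, so a change shared by most genes would be removed. The sources used here name no genome build for them. Of 41345 probe sets, 23521 had 1 gene symbol, 1814 several and 16010 none; these gave 22180 genes, and for 1082 of them the probe set of highest mean was used. No gene was left out for low values.

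All 13 arrays were fitted with limma 3.58.1 (R 4.3.3), 1 mean per group, with two-sided tests and Benjamini-Hochberg adjustment over all genes at 0.05; the fit was tested on simulated data. The residual degrees of freedom were 9. Same-numbered arrays of a treatment deviated together (correlations of 0.181 to 0.358), so the numbers were taken to pair arrays within a treatment. Both arrays also had the same Xist state in every such pair, and in only some same-numbered pairs across treatments. Across treatments the correlations ranged from -0.228 to 0.431. The highest of these exceeded all of those within a treatment, and the labels state no pairing, so it stays uncertain. The main fit therefore held no block, and the block was run as an alternative. Alternatives changed the filter, scaling, probe sets, arrays, weights and block. Always named were the 8 genes; pathway genes were named if past the threshold or of smallest p in their list, and the 5 genes most and least like Itgae. The genes and lists were chosen with earlier results of these data known. Runx2, Zfp683, Zeb2 and Ilk were among the listed genes not analysed here.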

Additional observations from a re-analysis of the deposited data

Results flagged for a closer look

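The Smad3 difference between the gates had opposite signs in the 2 treatments, but neither gate difference passed limma's test. High minus low was 0.10 ± 0.15 (SE; limma adjusted p = 0.915) in PBS mice. All 3 high arrays lay above all 4 low arrays there, with a gap of 0.0162. The PBS difference was smaller than its SE, so its sign was not settled. In MDP mice high minus low was -0.48 ± 0.16 (SE; limma adjusted p = 0.276), and all 3 high arrays lay below all 3 low arrays. The difference between these effects was -0.58 ± 0.21 (SE), with an unadjusted p of 0.0173 and a limma adjusted p of 0.395 for the interaction, so it missed the threshold. Without MDP CD103 low replicate 1 the MDP difference was -0.24.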

How the results depend on the processing

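No called Itgae difference changed sign under the alternatives run. The uncalled MDP low minus PBS high difference ran from -0.55 to 0.30 over 26 alternatives and changed sign in 4. On leaving out 1 array it ran from -0.30 to 0.22. Itgae in PBS high minus low kept its call without any single array, at 2.07 to 2.37, and 1 of the 8 genes passed each time. The MDP high minus low difference of Itgae passed, making the count 1, with genes above background alone (1.22, limma adjusted p = 0.0269), array weights (1.35, 0.0231), quantile normalisation (1.23, 0.0452), median centring (1.24, 0.0479), the replicate block within treatment (1.24, 0.0242) and the block by number alone (1.25, 0.0346). Leaving out 1 array gave 0.98 to 1.49 and a count of 0 to 1. Low MDP minus PBS was lost, with a count of 0, when all probe sets were tested (2.21, 0.0603), with trend and robust estimates (2.21, 0.0569) and with only the arrays compared (2.21, 0.331); leaving out 1 array gave 1.93 to 2.45 and a count of 0 to 1. High MDP minus PBS was lost, with a count of 0, when all probe sets were tested (1.20, 0.0882), and leaving out 1 array gave 1.12 to 1.32 and 0 to 2. In MDP low minus PBS high the count was 1, Tgfbr1, with genes above background or trend and robust estimates, and 0 to 1 on leaving out 1 array; in MDP high minus PBS low it was 1 to 2.

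Fits over arrays of 1 Xist state, chosen after seeing the data, called 0 of the 8 genes. With low Xist and with high Xist, Itgae differed by 2.26 and 2.155 in PBS high minus low (adjusted p = 0.979 and 0.754), by 1.06 and 1.66 in MDP high minus low, by 2.56 and 1.61 in low MDP minus PBS, by 1.36 and 1.12 in high MDP minus PBS, by 3.63 and 3.27 in MDP high minus PBS low, by 1.66 and 1.91 between the gates on average and by 1.96 and 1.36 between treatments on average. The interaction was -1.20 and -0.49 in these fits, and MDP low minus PBS high was 0.30 and -0.55. These fits hold fewer arrays. For the other 7 genes, 63 differences gave 1617 alternative values, of which 5 passed and 49 changed sign, none of them called. The replicate block changed no other call on the 8 genes. Over all genes, the number called ranged from 0 to 228 in MDP high minus low (116 as reported; 190 with the block), from 0 to 699 in high MDP minus PBS (403) and from 0 to 25 in PBS high minus low (17). With the block within treatment it moved from 28 to 64 for the gates on average, from 41 to 13 for the treatments on average and from 16 to 41 for the interaction. The 3 or 4 arrays per group limit the precision of every value.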

Other observations

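Cd207, encoding langerin, a lectin of Langerhans cells and some cDC1 that TGF-β is known to induce, had its higher values in the CD103 high gate. It measured 8.57, 8.75, 8.07 and 7.80 in PBS CD103 low replicates 1, 3, 4 and 6 and 8.80, 9.18 and 8.66 in PBS CD103 high replicates 4, 5 and 6. After MDP it measured 8.77, 8.34 and 7.75 in CD103 low replicates 1, 2 and 3 and 9.31, 8.76 and 9.33 in CD103 high replicates 2, 3 and 4. Both pairs of gates overlapped, and neither difference passed limma's test, at 0.58 (adjusted p = 0.573) and 0.85 (adjusted p = 0.29).

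Nfil3 measured 8.80, 8.82 and 9.27 in PBS CD103 high cells and 8.49, 8.38 and 8.52 in MDP CD103 high cells, without overlap, and its PBS high minus low difference was 0.27 (limma adjusted p = 0.537). Acvr2b likewise lay higher in PBS CD103 high than in PBS CD103 low cells by 0.31 (limma adjusted p = 0.365) and lower in MDP CD103 high cells. Both comparisons use the same PBS CD103 high arrays.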
